A study of Mus musculus with 11 samples.

Results

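The transcripts described here are those of the glucose transporter gene Slc2a1 and of 9 genes of glycolysis and lactate formation, Hk2, Pfkl, Aldoa, Tpi1, Gapdh, Pgk1, Eno1, Pkm and Ldha. Every probe set annotated to one of these 10 genes was taken, whatever its signal, which gave 19 of the 12488 probe sets of the array, for 9 of the 8949 genes annotated to any probe set. Of these 19, 11 are annotated to 1 gene and 2 to Gapdh together with other symbols, while 6 are control probe sets for Gapdh. No probe set was annotated to Eno1 in the table used here, so enolase 1 was not analysed here.

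The series treated mouse 3T3-L1 cells with 3 thiazolidinediones and measured total RNA on 11 one-colour oligonucleotide arrays, 1 per sample. The groups were pioglitazone at 20 µM (2 arrays), rosiglitazone at 1 µM (3 arrays), troglitazone at 20 µM (3 arrays) and the vehicle, 0.1% DMSO (3 arrays), each for 24 h. The 3T3-L1 line consists of mouse fibroblasts, precursors that hormones can turn into fat cells, and the labels state neither whether these cells had been differentiated nor whether the samples came from separate cultures. The p-values therefore measure only the spread between these samples, which may be technical.

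Thiazolidinediones are ligands of PPARγ, a nuclear receptor of adipocytes. Glycolysis splits glucose into pyruvate, which is oxidised in mitochondria or reduced to lactate, and in fat cells the triose phosphates also supply the glycerol backbone of triglyceride. Slc2a1 carries glucose into the cell without needing insulin, and several of the genes named above are textbook targets of hypoxia-inducible factor. This factor can bind sites with the core letters ACGTG, and other forms of its site were not searched.

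The promoters of Slc2a1, Pgk1 and Ldha are shown as examples in which ACGTG occurs and the signal was higher with troglitazone. Hk2, Aldoa, Pkm and, by 1 of its 2 probe sets, Gapdh met the same conditions and are not shown. Tpi1 and Pfkl were also higher with troglitazone, and their windows held no match. Any part of these letters in the differences was not tested. Sequences are those of RefSeq on GRCm38.p6, from 250 bases before to 50 bases after the annotated start, on the plus strand, with ACGTG on either strand in capitals. The windows are chr4:119108495-119108794 for Slc2a1, chrX:106186850-106187149 for Pgk1 and chr7:46845554-46845853 for Ldha.
Slc2a1: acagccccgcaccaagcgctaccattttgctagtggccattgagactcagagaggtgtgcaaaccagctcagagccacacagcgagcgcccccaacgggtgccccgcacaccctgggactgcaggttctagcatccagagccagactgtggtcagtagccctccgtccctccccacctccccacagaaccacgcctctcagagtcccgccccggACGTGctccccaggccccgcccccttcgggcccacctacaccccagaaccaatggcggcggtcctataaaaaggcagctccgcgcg
Pgk1: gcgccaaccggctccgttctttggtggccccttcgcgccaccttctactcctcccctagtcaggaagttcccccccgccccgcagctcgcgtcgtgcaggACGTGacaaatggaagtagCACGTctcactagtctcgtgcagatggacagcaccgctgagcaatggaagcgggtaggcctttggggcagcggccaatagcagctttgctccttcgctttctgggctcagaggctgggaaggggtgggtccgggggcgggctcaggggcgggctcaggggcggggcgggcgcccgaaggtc
Ldha: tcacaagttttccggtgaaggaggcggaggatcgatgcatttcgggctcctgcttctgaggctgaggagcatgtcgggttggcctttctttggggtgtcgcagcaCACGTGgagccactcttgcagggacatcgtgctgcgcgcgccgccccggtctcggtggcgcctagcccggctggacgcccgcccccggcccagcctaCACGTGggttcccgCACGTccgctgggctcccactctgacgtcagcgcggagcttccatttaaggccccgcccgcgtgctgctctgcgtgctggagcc
In the Slc2a1 window the match starts 36 bases before the start site, and in the Pgk1 window matches lie 150 and 131 bases before it. The Ldha window holds 5 overlapping or separate matches, 4 of them within 2 copies of CACGTG that begin 145 and 48 bases before the start.

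All 10 genes, Eno1 included, matched the RefSeq promoter table, with 16 windows in all. ACGTG, searched on both strands, occurred in 8 of these 16 windows, belonging to 7 genes, against 19.6% of all 32851 promoter windows of the same length. The windows of Tpi1, Pfkl and Eno1 held none, nor did 1 window each of Aldoa, Pkm and Ldha. That Ldha window is not the one printed above. The nuclear receptor motif AGGTCA was found, on either strand, in 5 of the 16 windows and in 16.3% of all windows. CACGTG occurred in 1 window, the Ldha window printed above, and in 7.15% of all. The GC box GGGCGG was found in 11 of the 16 and in 35.7% of all. A match is a description of the letters only, and windows of 1 gene can overlap.

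The deposited signals had already been scaled, and their mean after trimming was nearly the same on every array. By their titles the arrays fall into 2 sets: set 1 comprises 8 arrays, replicates 1 and 2 of each group, and set 2 comprises the 3 arrays numbered 4, of rosiglitazone, troglitazone and vehicle. Pioglitazone is in set 1 alone. Of the 9 adipocyte marker genes measured, 9 gave signals above 73.7, the floor set on the signals, on every array, as did 5 of 9 skeletal muscle markers and 1 of 4 macrophage markers. The muscle markers summed to 3244 to 4510 with pioglitazone, 2749.6 to 3969.8 with rosiglitazone and 2362 to 3889 with troglitazone, against 2342 to 2842 with vehicle. No muscle or macrophage marker passed the threshold below with any drug. The adipocyte markers summed to 107422 to 123881, 104094 to 142441 and 85970 to 115956 with the drugs in that order, against 98540 to 124320 with vehicle. Among them Cidec rose with every drug, and Retn fell with rosiglitazone and troglitazone. The summed signal of 8 preadipocyte and fibroblast markers was 5682 to 5976 with pioglitazone, 6436 to 7649 with rosiglitazone and 4337 to 6720 with troglitazone, against 9168 to 9495 with vehicle. It was thus lower on all 8 drug arrays, and the part of any of these marker groups in the results below was not tested. Of those 8 markers 2 fell with troglitazone, Col1a1 and Col3a1, and 0 with pioglitazone or rosiglitazone. Replicate 2 of rosiglitazone had the lowest median correlation with the other arrays, 0.833, and replicate 2 of pioglitazone the highest ratio of 3′ to 5′ signal of the actin controls, 4.86.

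Differences were estimated with limma in 1 model of group and set over all 11 arrays, and "rose" or "fell" means a Benjamini-Hochberg adjusted p under 0.05 over all 11739 tested probe sets. Fold changes are set-adjusted, so they can differ from ratios of the mean signals, and errors of log2 values are standard errors. Of the 19 probe sets, 12 were tested. The 6 control probe sets stood outside the test, and 1 of the 2 probe sets of Hk2 was above the floor on 1 array only. For Aldoa, Gapdh and Pkm, the first of 2 tested probe sets means the brighter one.

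Most glycolytic transcripts gave higher signals with each drug than with vehicle, and the most passed the threshold with troglitazone. With troglitazone 8 of the 12 tested probe sets rose, those of Slc2a1, Hk2, Pfkl, Tpi1, Pgk1 and Ldha, the first of 2 of Pkm and the first of 2 annotated to Gapdh, against 0.775% of all tested probe sets that rose. With rosiglitazone 4 of the 12 rose, those of Hk2, Tpi1, Ldha and Gapdh, against 0.784% of all. With pioglitazone 1 of the 12 rose, Tpi1, against 0.63% of all. All arrays of the drug lay above all vehicle arrays for 10 of the 12 with troglitazone, 8 with rosiglitazone and 9 with pioglitazone, against 4.77%, 4.78% and 9.07% of all tested probe sets. None of the 12 fell with any drug, and the 3 comparisons share the vehicle arrays.

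The median log2 difference over the 12 probe sets was 0.43 with pioglitazone, 0.59 with rosiglitazone and 0.74 with troglitazone, beside medians of -0.08, 0.00 and -0.03 over all tested probe sets. In each comparison 11 of the 12 differences were positive, and the second Gapdh probe set was the exception. Centring each array on its median moved the pioglitazone median of all probe sets to 0.06 and that of the 12 to 0.62, whereas quantile normalisation moved that of the 12 to 0.22. On all 8 drug arrays, 8 of the 12 probe sets exceeded the vehicle mean of their set. This count was not made over all tested probe sets, so no share stands beside it. Fewer cells of a type and less RNA per cell cannot be told apart in such bulk samples.

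**Figure D1:**
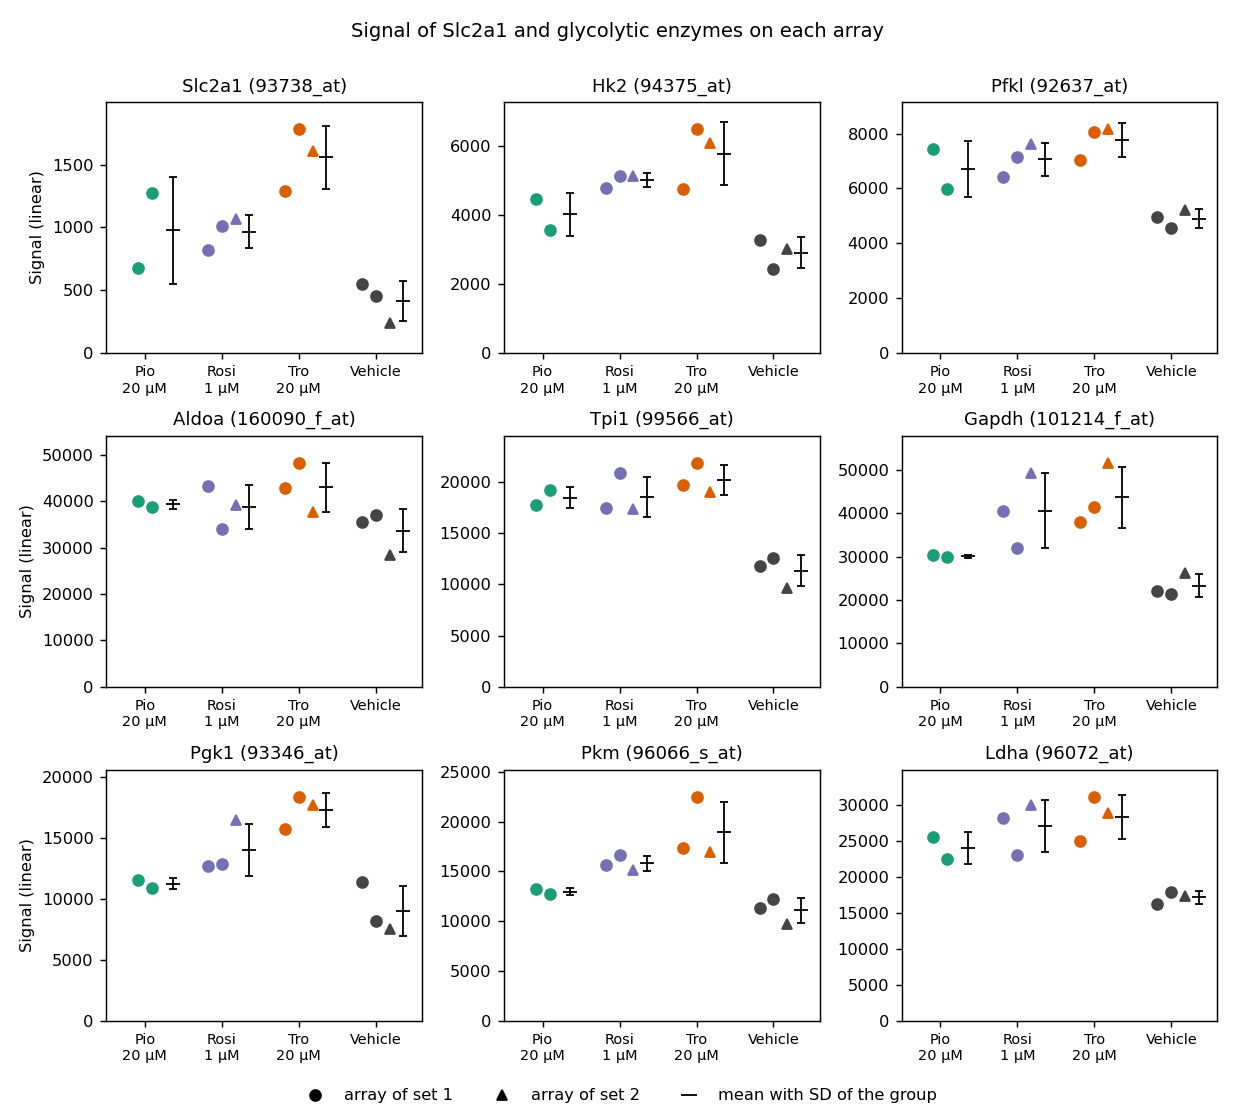
Deposited signal (linear scale) of 9 probe sets of Slc2a1 and the glycolytic enzymes on each of the 11 arrays, by group, with group means and SD; circles are arrays of set 1 and triangles of set 2, and for Aldoa, Gapdh and Pkm the first probe set is drawn. For Slc2a1 the 3 troglitazone arrays lie between 1285 and 1784, above all vehicle arrays, which lie between 234 and 549.

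Slc2a1, the transporter at the entry of the pathway, showed the largest fold change among the 12 probe sets with each drug. Its signal was 674 and 1275 with pioglitazone, 820.0, 1013 and 1063 with rosiglitazone, 1285, 1784 and 1604 with troglitazone, and 549, 452 and 234 with vehicle. Every drug array was above every vehicle array, and the lowest signal was that of vehicle replicate 4. By mean the order was troglitazone (1558 ± 253), pioglitazone (974.5 ± 425), rosiglitazone (965 ± 128) and vehicle (412 ± 161; SD, n = 3, 2, 3 and 3), and the pioglitazone and rosiglitazone arrays overlapped.

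Slc2a1 rose 3.98-fold with troglitazone (log2 1.99 ± 0.32, limma adjusted p = 0.00321, higher on 3 of 3 arrays). The rosiglitazone difference was 2.48-fold (1.31 ± 0.32, limma adjusted p = 0.0623) and the pioglitazone difference 2.25-fold (1.17 ± 0.37, limma adjusted p = 0.209), neither past the threshold. Within set 1 alone the log2 difference was 1.60 with troglitazone, 0.87 with rosiglitazone and 0.90 with pioglitazone, and within set 2 it was 2.78 with troglitazone and 2.18 with rosiglitazone. The troglitazone call ended without troglitazone replicate 4 (log2 1.82, limma adjusted p = 0.0616).

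Hk2 encodes hexokinase 2, which traps glucose as its phosphate. Its tested probe set gave 4465 and 3581 with pioglitazone, 4782, 5132 and 5126 with rosiglitazone, 4758, 6508 and 6100.4 with troglitazone, and 3285, 2425 and 3019 with vehicle. All drug arrays exceeded all vehicle arrays, and the rosiglitazone arrays were the closest together. Hk2 rose 1.99-fold with troglitazone (log2 0.99 ± 0.16, limma adjusted p = 0.00355, 3 of 3 arrays) and 1.74-fold with rosiglitazone (0.80 ± 0.16, limma adjusted p = 0.0203, 3 of 3 arrays). With pioglitazone it was 1.42-fold higher, with a limma adjusted p of 0.333. The troglitazone call held whichever 1 array was left out, with an adjusted p of at most 0.0497. The rosiglitazone call ended without any 1 of 5 arrays (rosiglitazone replicates 1, 2 and 4, vehicle replicates 2 and 4), with an adjusted p of up to 0.143. The other Hk2 probe set was below the floor on all arrays except rosiglitazone replicate 2, at 179.

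Pfkl encodes the liver-type subunit of phosphofructokinase, the committed step of the pathway. Its signal was 7439 and 5973 with pioglitazone, 6414, 7151 and 7617 with rosiglitazone, 7047, 8075 and 8174 with troglitazone, and 4944, 4539 and 5219 with vehicle. Again no drug array fell within the vehicle range. Pfkl rose 1.58-fold with troglitazone (log2 0.66 ± 0.13, limma adjusted p = 0.0152, 3 of 3 arrays). The differences were 1.44-fold with rosiglitazone (limma adjusted p = 0.0639) and 1.41-fold with pioglitazone (limma adjusted p = 0.183). The troglitazone call ended without any 1 of 5 arrays (troglitazone replicates 2 and 4, vehicle replicates 1, 2 and 4), with an adjusted p of up to 0.116.

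Aldoa encodes aldolase A, which splits fructose bisphosphate into trioses, and it was the enzyme whose 2 probe sets both missed the threshold with every drug. The first of them gave 40014 and 38688 with pioglitazone, 43399, 33923 and 39207 with rosiglitazone, 42944, 48296 and 37804 with troglitazone, and 35474, 37149 and 28489 with vehicle. With rosiglitazone its arrays lay on both sides of the highest vehicle array. Its log2 differences were 0.17 with pioglitazone, 0.21 with rosiglitazone and 0.35 with troglitazone (limma adjusted p = 0.807, 0.631 and 0.376). The second Aldoa probe set gave 0.24, 0.22 and 0.28 in the same order, and with quantile normalisation both pioglitazone differences turned slightly negative (-0.04 and -0.01).

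Tpi1, triosephosphate isomerase, interconverts the 2 trioses and was the one gene among the 9 measured members that rose with all 3 drugs. Its signal was 17779.8 and 19232 with pioglitazone, 17526, 20873 and 17347 with rosiglitazone, 19729, 21904 and 19097 with troglitazone, and 11775, 12634 and 9671 with vehicle. The lowest drug array stood well above the highest vehicle array. Tpi1 rose 1.79-fold with troglitazone (log2 0.84 ± 0.12, limma adjusted p = 0.00109, 3 of 3 arrays), 1.64-fold with rosiglitazone (0.71 ± 0.12, limma adjusted p = 0.00578, 3 of 3 arrays) and 1.56-fold with pioglitazone (0.65 ± 0.14, limma adjusted p = 0.0401, 2 of 2 arrays). The pioglitazone call did not survive the loss of any single array (adjusted p between 0.0511 and 0.184) nor quantile normalisation (0.435). With rosiglitazone it ended without rosiglitazone replicate 2 (0.0518), rosiglitazone replicate 4 (0.0575) or vehicle replicate 4 (0.0746), whereas the troglitazone call held without any 1 array.

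Gapdh, glyceraldehyde 3-phosphate dehydrogenase, is often used as a reference transcript, and its signal differed between the groups here. The first probe set, annotated to Gapdh, Gapdh-ps15 and Gm12070, gave 30359.7 and 29808 with pioglitazone, 40466, 31983 and 49372 with rosiglitazone, 38084, 41386 and 51634 with troglitazone, and 22156, 21475 and 26269 with vehicle. Since it carries several symbols, its signal cannot be assigned to Gapdh alone. Drug and vehicle arrays did not overlap, and the pioglitazone arrays were the lowest of the drug arrays. This probe set rose 1.87-fold with troglitazone (log2 0.90 ± 0.12, limma adjusted p = 0.000687, 3 of 3 arrays) and 1.72-fold with rosiglitazone (0.78 ± 0.12, limma adjusted p = 0.00293, 3 of 3 arrays), and both calls held whichever 1 array was left out. With pioglitazone it was 1.41-fold higher (limma adjusted p = 0.147). The second probe set, annotated to Gapdh and Gapdh-ps15, ranged from 204 to 1298 over all arrays with no separation of the groups, and its log2 differences were -0.996, -0.42 and -0.26 with pioglitazone, rosiglitazone and troglitazone (limma adjusted p = 0.686, 0.834 and 0.979). The rosiglitazone value was 0.21 without rosiglitazone replicate 4, and the troglitazone value 0.43 without troglitazone replicate 2.

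The Gapdh control probe sets, which were not tested, read 3 stretches of the same transcript. The 3′ part gave 60776 and 55084 with pioglitazone, 71961, 74524 and 66700.2 with rosiglitazone, 76663, 76112 and 73957 with troglitazone, and 46589.7, 48340.4 and 45351 with vehicle. The middle part gave 53109.8 and 38980.1 with pioglitazone, 60501, 62566 and 59205 with rosiglitazone, 63812, 78957 and 66782 with troglitazone, and 37571, 41214 and 34159.6 with vehicle. The 5′ part gave 37209 and 25199.8 with pioglitazone, 49974, 44017 and 39590.3 with rosiglitazone, 52455, 70856 and 42315 with troglitazone, and 32412, 34476 and 21779.9 with vehicle. In the 3′ part all drug arrays were above all vehicle arrays, and in the middle and 5′ parts the pioglitazone arrays overlapped the vehicle arrays.

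Set-adjusted log2 differences were 0.28, 0.24 and -0.07 for the 3′, middle and 5′ parts with pioglitazone, 0.60, 0.69 and 0.61 with rosiglitazone, and 0.69, 0.89 and 0.90 with troglitazone. The rosiglitazone and troglitazone values were thus positive along the whole transcript, and the pioglitazone value was not. The ratio of 3′ to 5′ signal was 1.63 to 2.19 with pioglitazone, 1.44 to 1.69 with rosiglitazone and 1.07 to 1.75 with troglitazone, against 1.40 to 2.08 with vehicle.

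The 3 control probe sets for the opposite strand of Gapdh were not tested either. That of the 3′ part gave 28328 and 10072 with pioglitazone, 14211, 8646 and 8722 with rosiglitazone, 15551, 8412 and 8697 with troglitazone, and 7328, 8156 and 10069 with vehicle. That of the middle part gave 16851 and 5999.9 with pioglitazone, 12550.3, 8784 and 7594 with rosiglitazone, 13290.3, 9237 and 8153 with troglitazone, and 5278, 5995 and 5991 with vehicle. That of the 5′ part gave 7428 and 2868 with pioglitazone, 8613, 5208 and 4998 with rosiglitazone, 8929, 7348 and 5284 with troglitazone, and 3605, 3239 and 3621 with vehicle. In the 3′ part rosiglitazone and troglitazone arrays overlapped the vehicle arrays, and pioglitazone replicate 2 was barely above them. In the middle part every drug array was above every vehicle array, again barely for pioglitazone replicate 2, and in the 5′ part rosiglitazone and troglitazone arrays were above the vehicle arrays while pioglitazone replicate 1 was above and replicate 2 below all of them. Set-adjusted log2 differences for the 3′, middle and 5′ parts were 0.96, 0.72 and 0.30 with pioglitazone, 0.28, 0.71 and 0.80 with rosiglitazone, and 0.31, 0.80 and 1.01 with troglitazone.

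**Figure D2:**
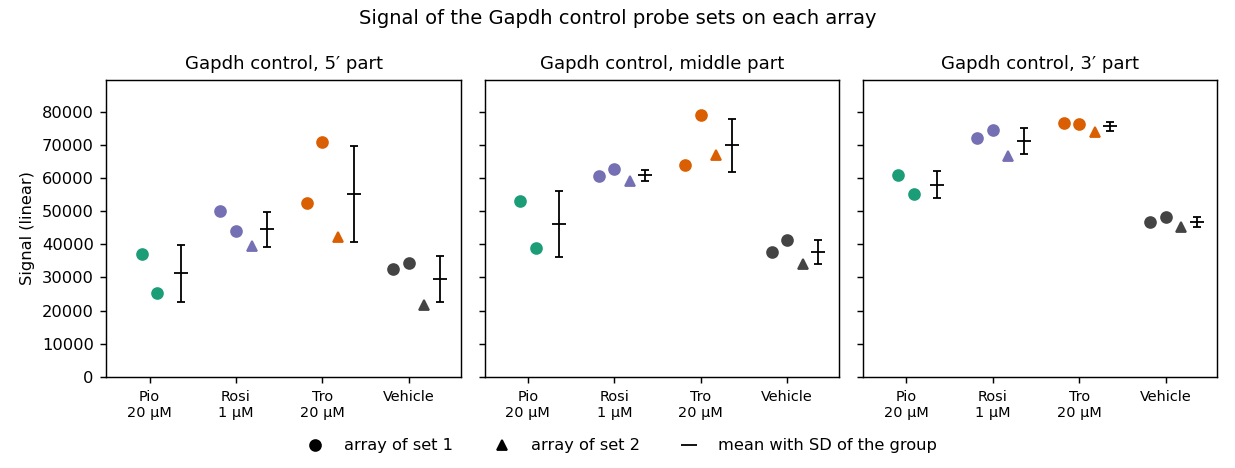
Deposited signal (linear scale) of the Gapdh control probe sets for the 5′, middle and 3′ parts of the transcript on each of the 11 arrays, with group means and SD; circles are arrays of set 1 and triangles of set 2. Rosiglitazone and troglitazone arrays lie above the vehicle arrays in all 3 parts, and both pioglitazone arrays do so in the 3′ part only.

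Pgk1, phosphoglycerate kinase 1, makes the first ATP of the pathway. Its signal was 11545 and 10913 with pioglitazone, 12681, 12855 and 16442 with rosiglitazone, 15715, 18359 and 17704 with troglitazone, and 11352, 8133 and 7486 with vehicle. The troglitazone arrays were all above the vehicle range, and 1 pioglitazone array fell inside it. Pgk1 rose 1.95-fold with troglitazone (log2 0.96 ± 0.16, limma adjusted p = 0.00435, 3 of 3 arrays). Differences were 1.57-fold with rosiglitazone (limma adjusted p = 0.0639) and 1.28-fold with pioglitazone (limma adjusted p = 0.582). The troglitazone call ended without troglitazone replicate 4 (0.0582), vehicle replicate 2 (0.0530) or vehicle replicate 4 (0.0673).

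Pkm encodes the muscle-type pyruvate kinase, which makes pyruvate and the last ATP, and its splice forms are not told apart here. The first probe set gave 13217 and 12745 with pioglitazone, 15603, 16675 and 15163 with rosiglitazone, 17324, 22499.7 and 17006 with troglitazone, and 11322, 12190.3 and 9718 with vehicle. Every drug array exceeded every vehicle array, by little with pioglitazone. It rose 1.70-fold with troglitazone (log2 0.77 ± 0.12, limma adjusted p = 0.00347, 3 of 3 arrays), a call that held without any 1 array, and was 1.43-fold higher with rosiglitazone (limma adjusted p = 0.0563). With pioglitazone the log2 difference was 0.17 and turned to -0.10 after quantile normalisation. The second Pkm probe set gave log2 differences of 0.38, 0.18 and 0.61 with pioglitazone, rosiglitazone and troglitazone, none past the threshold (limma adjusted p = 0.561, 0.748 and 0.112).

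Ldha encodes lactate dehydrogenase A, which turns pyruvate into lactate. Its signal was 25612 and 22477 with pioglitazone, 28172, 23121 and 30031 with rosiglitazone, 25034, 31165 and 28894 with troglitazone, and 16241, 17954 and 17302 with vehicle. The lowest drug array, pioglitazone replicate 2, lay above the highest vehicle array. Ldha rose 1.65-fold with troglitazone (log2 0.72 ± 0.13, limma adjusted p = 0.00903, 3 of 3 arrays) and 1.57-fold with rosiglitazone (0.65 ± 0.13, limma adjusted p = 0.0203, 3 of 3 arrays), and was 1.43-fold higher with pioglitazone (limma adjusted p = 0.165). Leaving out 1 array ended the troglitazone call in 4 cases (troglitazone replicates 2 and 4, vehicle replicates 1 and 4), with an adjusted p of up to 0.101. It ended the rosiglitazone call in 5 cases (rosiglitazone replicates 1 and 4, vehicle replicates 1, 2 and 4), with an adjusted p of up to 0.155.

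**Figure D3:**
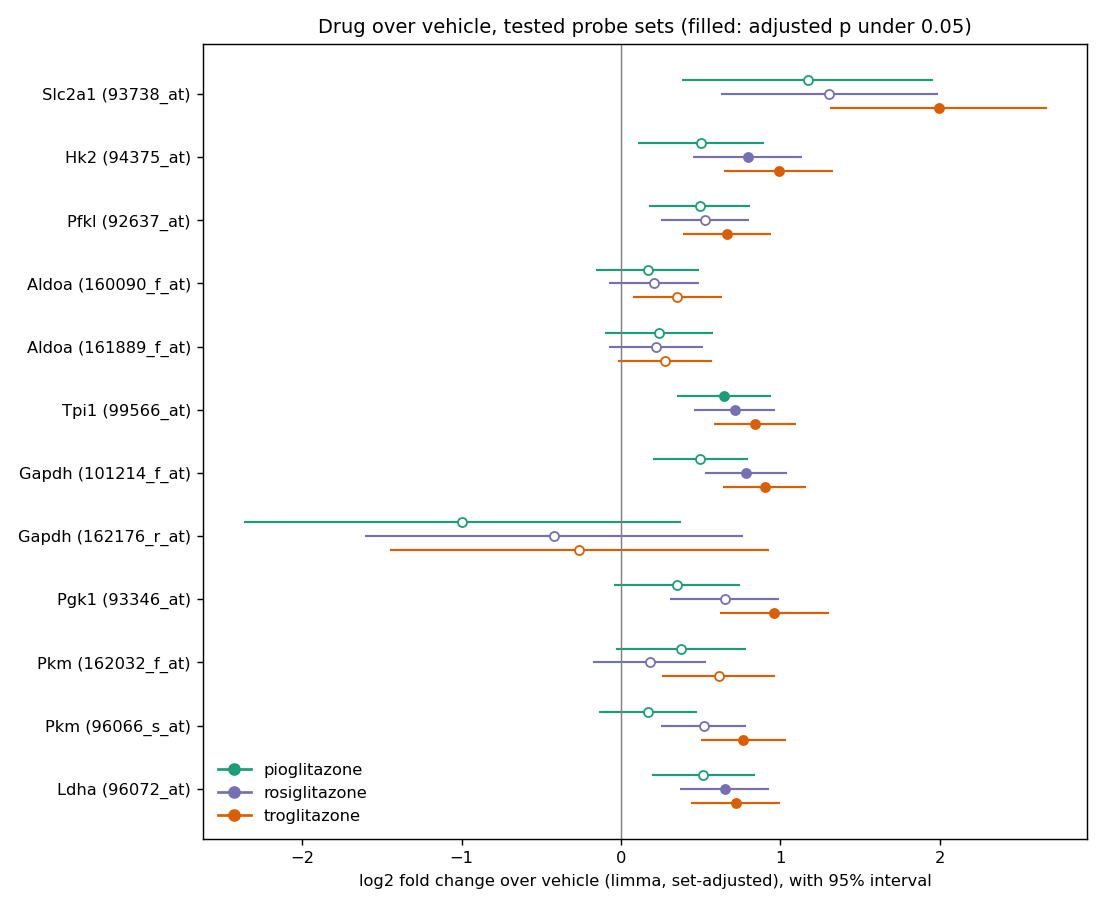
Set-adjusted log2 fold change over vehicle with its 95% interval for the 12 tested probe sets and the 3 drugs; filled points have a limma adjusted p under 0.05. The 8 filled troglitazone points lie between 0.66 (Pfkl) and 1.99 (Slc2a1), and Tpi1 is filled for all 3 drugs.

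Averaged over the 3 drugs, 8 of the 12 probe sets rose, the same 8 as with troglitazone, against 1.28% of all tested probe sets. Tpi1 was 1.66-fold higher (limma adjusted p = 0.000731), Slc2a1 2.81-fold (limma adjusted p = 0.00592) and Pkm 1.40-fold (limma adjusted p = 0.0206), each on 8 of 8 drug arrays. Signals of drug and vehicle arrays did not overlap for 7 of the 12, against 1.29% of all tested probe sets that were higher without overlap. Leaving out 1 array gave 2 to 8 calls, with 2 without vehicle replicate 4. Without vehicle replicate 4 the limma adjusted p was 0.0754 for Slc2a1 and 0.165 for Pkm. The Pkm call also ended without rosiglitazone replicate 4, troglitazone replicate 4, or vehicle replicate 1 or 2. No glycolytic probe set was called with any drug when the prior variance was held constant over signal, when set 1 was fitted alone or when only the groups compared were fitted, although the called probe sets kept their direction.

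Troglitazone and pioglitazone form the only pair given at a matched dose, 20 µM, and time, so 1 pair of compounds was compared. Both are thiazolidinediones; where pioglitazone has a pyridine ring, troglitazone has the chroman ring found in vitamin E. All 12 log2 differences of troglitazone over pioglitazone were positive, with a median of 0.32 beside 0.04 over all tested probe sets. By limma 0 of the 12 passed the threshold, against 0.0256% of all that were called higher, and 5 had an unadjusted p under 0.05, against 6.35% of all.

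These 5 were Pkm, Pgk1, Gapdh, Hk2 and Slc2a1. The first Pkm probe set differed by 0.60 (95% interval 0.29 to 0.90, limma adjusted p = 0.278) and Pgk1 by 0.61 (0.22 to 1.00, limma adjusted p = 0.499). Slc2a1 differed by 0.82 (0.04 to 1.61, limma adjusted p = 0.756), Hk2 by 0.49 (0.09 to 0.89) and the first Gapdh probe set by 0.40 (0.11 to 0.70). Of the 12 probe sets, these same 5 had all troglitazone arrays above all pioglitazone arrays, against 7.23% of all tested probe sets. Because they were picked by their p in this comparison, their lack of overlap is not separate support. For Slc2a1 the nearest arrays were 1285 with troglitazone and 1275 with pioglitazone. For Tpi1 (0.19, -0.10 to 0.49), Ldha (0.20, -0.12 to 0.52) and Pfkl (0.17, -0.15 to 0.49) the intervals included 0, which does not show that the compounds act alike. Rosiglitazone also carries a pyridine ring, but it was given at 1 µM, so its values stand beside the others above with no test between the drugs.

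Whether the drug effect differed between the 2 sets was tested in a model with 4 residual degrees of freedom. By limma 0 of the 12 probe sets passed for rosiglitazone or troglitazone, and at an unadjusted p under 0.05 there were 1 and 0, against 3.72% and 2.45% of all tested probe sets. The 1 was Pgk1 with rosiglitazone, whose log2 difference was 0.41 in set 1 and 1.14 in set 2. Slc2a1 had the largest positive differences between sets. Its log2 values were 0.87 in set 1 and 2.18 in set 2 with rosiglitazone, and 1.60 and 2.78 with troglitazone. Set 2 holds 1 array per group, which limits this test, and its vehicle array had the lowest Slc2a1 signal. Hk2 differed little between sets, at 0.98 in set 1 and 1.01 in set 2 with troglitazone.

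Fewer of the other glycolytic enzymes and isozymes passed, but Bpgm, Ldhc and Pgk2 among them were below the floor on most arrays. Of 13 measured genes 2 rose with troglitazone, 1 with rosiglitazone and 0 with pioglitazone, none fell, and the median log2 differences were 0.12 with troglitazone, 0.21 with rosiglitazone and -0.14 with pioglitazone, beside -0.03, -0.01 and -0.08 over all genes. Pgam1, phosphoglycerate mutase, gave 7177 and 10339 with pioglitazone, 11835, 10873 and 13771 with rosiglitazone, 11946, 13201 and 14289 with troglitazone, and 7143, 7980.4 and 6805 with vehicle. It rose 1.80-fold with troglitazone (log2 0.85 ± 0.15, limma adjusted p = 0.00674, 3 of 3 arrays) and 1.66-fold with rosiglitazone (limma adjusted p = 0.0213, 3 of 3 arrays). Pfkp, the platelet-type phosphofructokinase subunit, rose 2.19-fold with troglitazone (1.13 ± 0.23, limma adjusted p = 0.0231, 3 of 3 arrays). The Pgam1 call with troglitazone ended without troglitazone replicate 2 or 4 or vehicle replicate 1 or 4 (adjusted p up to 0.102), and with rosiglitazone without any 1 array of rosiglitazone or vehicle (up to 0.187). The Pfkp call ended without any 1 troglitazone array or vehicle replicate 2 or 4 (up to 0.161).

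Around the pathway few genes passed. None of 6 other sugar transporters passed, and Slc2a4, the insulin-responsive transporter of fat and muscle, differed by 0.16, 0.05 and -0.23 on the log2 scale with pioglitazone, rosiglitazone and troglitazone. None of 3 lactate and pyruvate carriers, 2 enzymes of fructose 2,6-bisphosphate or 7 pentose phosphate genes passed in any of the 3 comparisons. Among these genes Slc2a2 and Slc5a1 were below the floor on most arrays, and Slc16a1 and Mpc1 on several. Among 7 genes of pyruvate dehydrogenase and its kinases 1 rose with every drug, Pdk4, a kinase that inhibits pyruvate entry into mitochondrial oxidation, and none fell. Pdk4 rose 3.72-fold with pioglitazone, 2.77-fold with rosiglitazone and 3.98-fold with troglitazone (limma adjusted p = 0.00715, 0.0125 and 0.000765, on 2 of 2, 3 of 3 and 3 of 3 arrays). When 1 array was left out, the troglitazone call held throughout. The pioglitazone call ended without pioglitazone replicate 2 or vehicle replicate 1 (limma adjusted p up to 0.101). The rosiglitazone call ended without rosiglitazone replicate 1 or 4, or vehicle replicate 1 or 4 (up to 0.131).

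**Figure D4:**
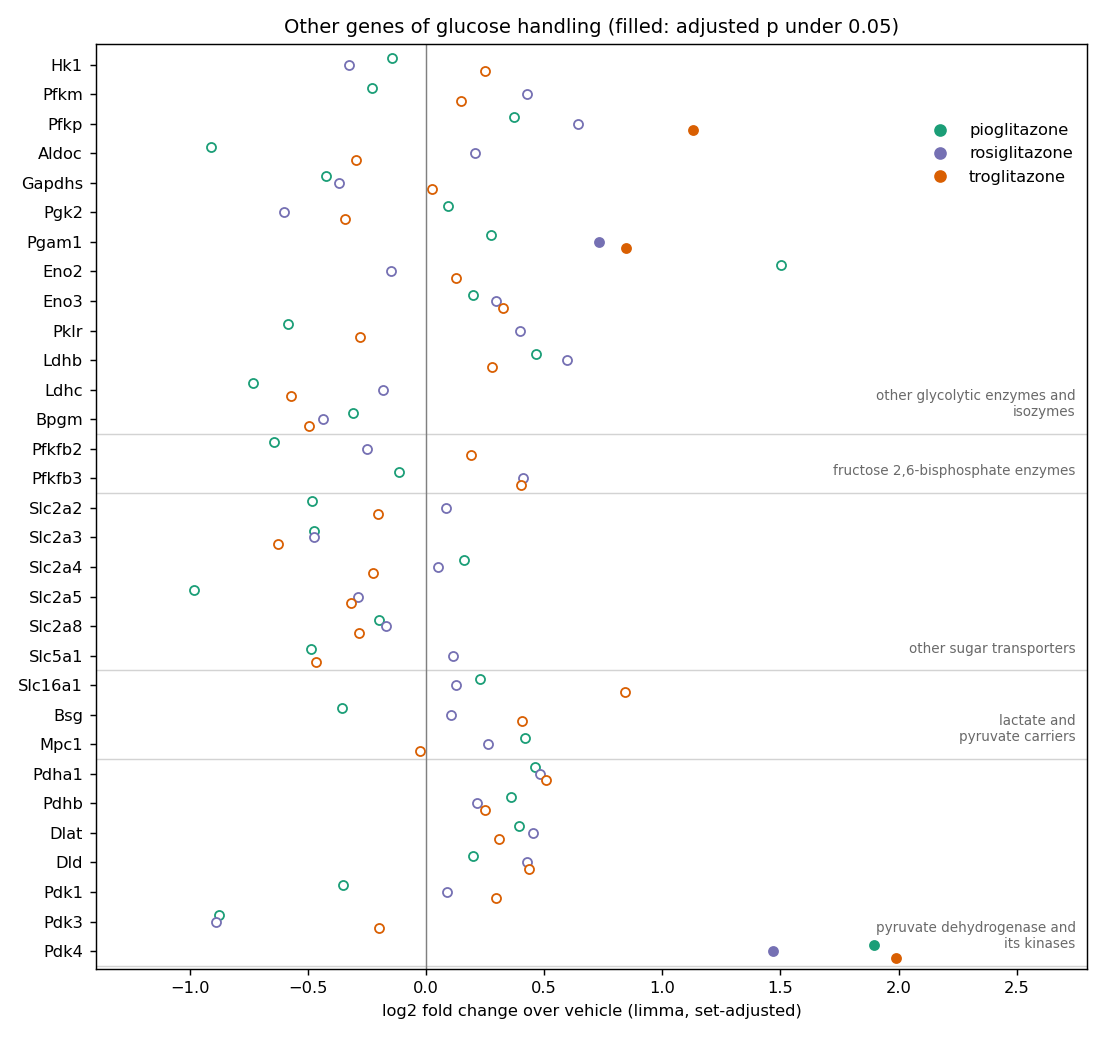
Set-adjusted log2 fold change over vehicle for 31 measured genes of glucose handling other than the members, grouped by role, for the 3 drugs; filled points have a limma adjusted p under 0.05. Filled points are those of Pfkp, Pgam1 and Pdk4.

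Over the 11 arrays, on log2 signals centred within each set, the members followed each other. The Pearson correlation of the 36 pairs of 9 member genes had a median of 0.87, from 0.68 for Aldoa with Tpi1 to 0.96 for Ldha with Gapdh, and the arrays share treatment groups, so this describes the same differences again. By the same measure the 5 genes most like Slc2a1 among 7954 were C9orf72 (0.93), Fam162a (0.91), Pgam1 (0.91), Gars (0.91) and Gys1 (0.91). Those most like the mean of the members were Cs, citrate synthase (0.98), Ghrh (0.96), Slc4a4 (0.95), Cox6a2 (0.94) and Plin2, a lipid droplet coat protein (0.94).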

How the data were processed

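Transcript signal was measured on 11 arrays of 3T3-L1 RNA, grouped by the labels. The deposited values are intensities on a linear scale that the authors had already scaled: the mean after trimming 2% at each end was 500.289 to 500.433 on every array. The array software is not given in the sources used here. Intensities below 73.7, the 25th percentile of all values, were raised to it, and log2 was taken. With 66 control probe sets kept apart, 11739 of 12422 probe sets above the floor on at least 2 arrays were tested, and 683 were not.

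Contrasts were fitted with limma 3.58.1 in R 4.3.3 (group and set, 6 residual degrees of freedom, two-sided, intensity trend) and adjusted by the Benjamini-Hochberg method. The code was tested on simulated data. On arrays the floor limits what can be seen of dim transcripts, and the number of arrays limits precision. Of 10833 probe sets with 1 gene, 10817 matched the RefSeq gene table. A listed gene is represented by its brightest tested probe set. Some listed genes lay below the floor on most arrays, where little change can be seen.

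The text names all probe sets of the members, each listed gene that passed with a drug, and the 5 genes most correlated with Slc2a1 or with the members' mean. Members and lists were chosen with earlier results of these data known. Of 15 pairs of same-numbered samples, 3 deviated together with a correlation above 0.1 (range -0.0989 to 0.362). These 3 were all of set 2, where number and set cannot be told apart. The pairs of replicates 1 and 2 reached at most 0.0949. Alternatives were other scalings, floors and filters, no set term, set 1 alone, a replicate block, no intensity trend, only the groups compared, and leaving out each array. An actin 3′ to 5′ covariate and leaving out 2 arrays that stand apart were chosen after seeing the data.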

Additional observations from a re-analysis of the deposited data

How the results depend on the processing

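Counts of called glycolytic probe sets among the 12 tested changed with several settings. With pioglitazone the 1 call became 0 under quantile normalisation, no low-signal filter, set 1 alone, no set term, no intensity trend, only the groups compared, the actin covariate, and without the 2 arrays that stand apart; leaving out single arrays gave 0 to 0. With rosiglitazone the 4 calls became 3 with quantile normalisation or median centring, 2 with no filter and 1 without the 2 arrays. They became 0 with no set term, set 1 alone, no intensity trend or only the groups compared. There were 5 with the floor at the 10th percentile, and 6 with it at the 50th, with the added constant or with the actin covariate. Leaving out single arrays gave 1 to 5 with rosiglitazone. With troglitazone the 8 calls became 7 with quantile normalisation or without the 2 arrays, 5 with no filter and 2 with no set term. They became 0 with set 1 alone, no intensity trend or only the groups compared, and were 4 to 8 when single arrays were left out. For the mean of the 3 drugs the 8 calls became 4 with quantile normalisation, 5 with no filter, 1 with no set term, 0 with set 1 alone or no intensity trend, and 5 without the 2 arrays, with 2 to 8 when single arrays were left out. Set 1 alone and only the groups compared use fewer arrays. No filter adds 683 probe sets both to the adjustment and to the estimate of the prior variance. Why the counts changed was not tested. Troglitazone over pioglitazone gave 0 calls under each alternative run (0 to 0 without single arrays). The difference between sets gave 0 under the other scalings, floors, added constant and no filter; the other alternatives were not run for it. A replicate block gave 1, 5, 8 and 8 calls with pioglitazone, rosiglitazone, troglitazone and their mean. Signs turned for uncalled probe sets only. Under quantile normalisation with pioglitazone, Aldoa gave -0.037 and -0.012 and Pkm -0.10. In set 1 alone with rosiglitazone, the second Pkm probe set gave -0.0091 and the second Gapdh probe set 0.16. When single arrays were left out, this Gapdh probe set ranged from -0.87 to 0.21 with rosiglitazone and from -0.66 to 0.43 with troglitazone. The second Aldoa probe set, troglitazone over pioglitazone, gave -0.037 with median centring and -0.012 to 0.077 without single arrays. Over all tested probe sets, calls ranged under the alternatives from 0 to 141 with pioglitazone (106 as reported), 6 to 177 with rosiglitazone (159) and 19 to 165 with troglitazone (156). Of those called, 69.8%, 57.9% and 58.3% rose with these drugs; with quantile normalisation these shares were 48.8%, 49.6% and 51.1%, and with median centring 87.2%, 56.4% and 70.1%.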

Other observations

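Among 17 measured hypoxia-inducible factors and other targets of theirs, 1 gene rose with troglitazone, Ero1a, an oxidase of protein folding in the endoplasmic reticulum, and 0 with pioglitazone or rosiglitazone. Its signal was 11649 and 10508 with pioglitazone, 15319, 14046 and 14975 with rosiglitazone, 25194, 32555 and 27598 with troglitazone, and 12009, 10401 and 8627 with vehicle. The troglitazone arrays were far above all others, the rosiglitazone arrays just above the vehicle arrays, and the pioglitazone arrays within the vehicle range. Ero1a rose 2.76-fold with troglitazone (log2 1.46 ± 0.14, limma adjusted p = 3.05e-05, 3 of 3 arrays), a call that held without any 1 array, and was 2.64-fold higher with troglitazone than with pioglitazone (limma adjusted p = 0.00148; 0.0542 without pioglitazone replicate 1). Of the 17 genes, 14 had a positive difference with troglitazone, 9 with pioglitazone and 9 with rosiglitazone. Their median log2 values were 0.46, 0.01 and 0.14 in that order, beside -0.03, -0.08 and -0.01 over all genes. Positive differences were not counted over all genes, so no share stands beside these counts. The Hif1a differences were 0.09, -0.28 and 0.21 with pioglitazone, rosiglitazone and troglitazone, none past the threshold.

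Among 8 genes of gluconeogenesis and glycerol phosphate supply, 2 rose with pioglitazone and rosiglitazone and 1 with troglitazone. Pck1, which makes phosphoenolpyruvate for glycerol synthesis in fat cells, gave 6331 and 6603 with pioglitazone, 3746, 4247 and 3013 with rosiglitazone, 1696, 1914 and 1356 with troglitazone, and 1718, 1016 and 1989 with vehicle. It was high with pioglitazone, intermediate with rosiglitazone and within the vehicle range with troglitazone. Pck1 rose 4.20-fold with pioglitazone (limma adjusted p = 0.000901, 2 of 2 arrays) and 2.40-fold with rosiglitazone (limma adjusted p = 0.0102, 3 of 3 arrays; up to 0.108 without rosiglitazone replicate 1 or 2). With troglitazone its log2 difference was 0.11 over vehicle and -1.96 over pioglitazone (limma adjusted p = 0.00851; up to 0.236 without either pioglitazone array, rosiglitazone replicate 1 or troglitazone replicate 1 or 4). Gpd1, which makes glycerol phosphate from a triose of glycolysis, rose 2.37-fold, 1.77-fold and 1.80-fold with pioglitazone, rosiglitazone and troglitazone (limma adjusted p = 0.00838, 0.0379 and 0.0330), on every array of each drug. The pioglitazone call ended without pioglitazone replicate 1 or vehicle replicate 1 or 2 (up to 0.142), and those with rosiglitazone and troglitazone without any 1 of 9 of the 11 arrays (up to 0.228 and 0.225). Another, dimmer Gpd1 probe set passed with no drug. Its log2 differences were 0.85, 0.87 and 0.22 with pioglitazone, rosiglitazone and troglitazone (limma adjusted p = 0.448, 0.293 and 0.951).

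Of 13 glycogen genes 1 rose with each drug, Pgm1, phosphoglucomutase, by 1.60-fold, 1.54-fold and 1.66-fold with pioglitazone, rosiglitazone and troglitazone (limma adjusted p = 0.0269, 0.0145 and 0.00358), on every array of each drug. The pioglitazone call ended without any 1 of 9 of the 11 arrays (up to 0.147), the rosiglitazone call without rosiglitazone replicate 2 or 4 or vehicle replicate 2 or 4 (up to 0.124), and the troglitazone call without vehicle replicate 4 (0.0536). Of 5 genes of the malate-aspartate shuttle 1 rose, Mdh2 with rosiglitazone (1.39-fold, limma adjusted p = 0.0458; up to 0.203 without any 1 of 9 of the 11 arrays). Of 7 regulators of glycolytic genes 1 fell with each drug, Srebf1, a factor that drives lipid synthesis genes. Its log2 differences were -1.09, -1.09 and -0.95 with pioglitazone, rosiglitazone and troglitazone (limma adjusted p = 0.00665, 0.00125 and 0.0032), and the troglitazone call ended without troglitazone replicate 4 (0.0525).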
